A study of Mus musculus with 19 samples.

Results

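The comparison described here is the change in gene expression of monocyte-derived Kupffer cells (mo-KCs) between day 15 and day 30 after diphtheria toxin (DT). Its members are the 8 mo-KC arrays among the 19 arrays of the series, chosen by their titles, with 3 arrays at day 15 and 5 at day 30. Kupffer cells (KCs) are the macrophages that live in the blood sinusoids of the liver. All 8 arrays came from KC-DTR mice of genotype DTR Tg, in which a cassette with a fluorescent protein and the human DT receptor was inserted into the Clec4f gene, so that 50 ng DT kills the resident KCs and monocytes refill the emptied liver. The mo-KCs of both days carry the same cassette, since they arose in the same mice. The mice were between 6 and 12 weeks of age when livers were taken. The cells were sorted from collagenase-digested liver as Clec4F+ macrophages negative for Ly6C, Ly6G and SiglecF, so a cell that had not yet made Clec4F protein was not collected and a change in Clec4f or Ly6C genes is limited by the gate. For reference, 11 arrays held embryonic KCs (em-KCs). Of these, 8 came from the KC-DTR colony without depletion (3 untreated DTR Tg mice, 1 untreated WT littermate, and WT littermates 15 or 30 days after DT with 2 arrays each), and 3 were labelled embryonic WT KCs. Arrays of 1 group are labelled as biological replicates.

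Day 30 replicates 3 to 5 and the 3 WT em-KC arrays stood apart from the other 13 arrays. Xist, the RNA that silences 1 X chromosome in female cells, was between 8.72 and 9.51 on the log2 scale in these 6 arrays and at most 4.53 in the other 13. All day 15 arrays lay among the 13. The day 30 group is thus split over 2 array sets, and no label names a set or gives the sex of a mouse. For WT minus colony em-KCs, Xist differed by 4.73 and the Y chromosome genes Eif2s3y, Uty and Kdm5d by -3.86, -3.71 and -2.86. The 8 measured sex-linked genes had differences between the days of -2.63 to 2.99 with all arrays, and of -0.09 to 0.30 within the 13 arrays. A difference between the sets can thus hold one of sex, and the 2 cannot be told apart. Every comparison was therefore made with all 5 day 30 arrays, with day 30 replicates 1 and 2 alone within the 13 arrays, and with a term for the array set, called the set term, in the fit of all 19 arrays.

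Newly recruited monocytes use chemokine receptors such as CCR2 to leave the blood, and switch to the gene programme of their new tissue while they differentiate into resident macrophages. KCs are known for Clec4F, for the phosphatidylserine receptor Tim4 (encoded by Timd4), which binds dying cells, for the complement receptor CRIg (encoded by Vsig4), and for handling iron, lipids and complement. The label was checked against 10 KC markers. Of these, 7 (Vsig4, Cd5l, Clec1b, Folr2, Adgre1, Slc40a1 and Clec4f) were high in all 8 mo-KC arrays. Vsig4 was between 12.71 and 12.91, against 12.82 to 13.03 in em-KCs. Adgre1, a macrophage surface receptor gene, was between 11.70 and 12.04, against 12.02 to 12.25. The scavenger receptor gene Marco (8.30 to 9.62, em-KCs 9.88 to 10.97), Timd4 and C6 were below every em-KC array at both days.

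Very few genes passed the test between the days. With all 5 day 30 arrays, 4 of 19938 genes were called, which is 0.0201% of those tested (limma, adjusted p under 0.05). Timd4 and Cxcl13 were higher at day 30, and Ccr2 and Ptgs2 were lower. Within the 13 arrays 6 genes (0.0301%) were called, 5 higher and 1 lower, and with the set term 8 genes (0.0401%), 6 higher and 2 lower. Timd4, Cxcl13 and Ccr2 were called in all 3 comparisons. The union of the 3 lists held 8 genes, and each had 1 probeset. At an unadjusted p under 0.05 the comparisons held 1012, 858 and 1241 genes. The study's methods name a test for comparing groups in general and none for the arrays. Applied here gene by gene, that general test called 0 genes with all arrays after adjustment and 1 within the 13. These counts are thus not from an array test of the study. For the median gene the 95% confidence interval reached 0.28 log2 units to either side of the difference in each comparison. With all arrays the interval lay within 1.5-fold for 82.7% of all genes, and within the 13 arrays for 87.7%.

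Timd4, the gene of the receptor for phosphatidylserine on dying cells, was higher at day 30 in every array. Its log2 level was 7.88, 8.24 and 8.36 in day 15 replicates 1 to 3, and 9.86, 9.69, 9.38, 9.56 and 9.63 in day 30 replicates 1 to 5. The groups did not overlap, and the lowest day 30 array was over 1 log2 unit above the highest day 15 array. The mean rose from 8.16 ± 0.25 (SD, n = 3) to 9.62 ± 0.18 (SD, n = 5), a log2 difference of 1.46 (2.76-fold, standard error 0.12, adjusted p = 5.12e-07 from limma). It was 1.62 within the 13 arrays (adjusted p = 6.17e-05) and 1.52 with the set term (adjusted p = 8.87e-07). In em-KCs Timd4 was between 11.70 and 12.02, so day 30 mo-KCs were still 2.28 lower, against 3.75 lower at day 15. In a sorted bulk sample, fewer cells expressing a gene and less RNA of it per cell cannot be told apart.

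Timd4 was the single called member among 22 measured genes of phosphatidylserine receptors and bridging proteins in each comparison. Trem2, a lipid-sensing receptor, also had every day 30 array (7.58 to 8.06) above every day 15 array (7.21 to 7.51), and its difference of 0.41 did not pass the test (adjusted p = 0.922). Such separation was seen for 1.65% of all genes upward and 1.55% downward. The median difference of the list was -0.04 with all arrays and 0.09 within the 13 arrays, beside medians of 0.0 and 0.001 over all genes.

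Cxcl13, the gene of a chemokine that attracts B cells, had the largest rise of the genes called. It was 6.96, 6.24 and 7.78 in the day 15 arrays and 9.04, 9.28, 9.65, 10.12 and 9.72 in the day 30 arrays. Day 15 replicate 3 was the highest of its group, and it was still more than 1 log2 unit below the lowest day 30 array. The difference was 2.57 (5.93-fold, standard error 0.26, adjusted p = 2.51e-05 from limma), 2.17 within the 13 arrays (adjusted p = 0.0133) and 2.33 with the set term (adjusted p = 7.15e-05). The call within the 13 arrays was lost without day 15 replicate 1 (difference 2.15), day 30 replicate 1 (2.29) or day 30 replicate 2 (2.04). Em-KCs lay between 10.52 and 11.37, so the gap to em-KCs went from -4.04 at day 15 to -1.47 at day 30.

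Ccr2, the receptor with which monocytes follow CCL2 into tissue, had the largest fall of the genes called. It was 8.17, 8.77 and 8.50 in the day 15 arrays and 6.20, 6.19, 6.67, 5.57 and 6.30 in the day 30 arrays. The day 30 arrays of both array sets were alike, with means of 6.20 ± 0.01 (SD, n = 2) in replicates 1 and 2 and 6.18 ± 0.56 (SD, n = 3) in replicates 3 to 5. The difference was -2.29 with all arrays (4.90-fold lower, standard error 0.24, adjusted p = 2.7e-05 from limma), -2.28 within the 13 arrays (adjusted p = 0.000565) and -2.38 with the set term (adjusted p = 7.15e-05). Em-KCs lay between 5.03 and 6.27. Against all em-KCs Ccr2 was 2.90 higher at day 15 (adjusted p = 2.38e-08 from limma), and at day 30 the difference was 0.61 (adjusted p = 0.125).

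Ptgs2, which encodes the inducible cyclooxygenase of prostaglandin synthesis, fell from 7.06, 6.92 and 7.10 at day 15 to 6.21, 5.64, 5.83, 5.51 and 5.60 at day 30. Day 30 replicate 1 was the highest of its group and was still below the lowest day 15 array. The difference was -1.27 with all arrays (2.41-fold lower, standard error 0.15, adjusted p = 0.000245 from limma) and with the set term (adjusted p = 0.000879). Within the 13 arrays it was -1.11 and just missed the threshold (adjusted p = 0.0533). Em-KCs lay between 5.20 and 5.80, near the day 30 arrays.

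The other 4 genes were called only where replicates 3 to 5 were left out or their array set was a term. Slc27a6, a fatty acid transport protein gene, was 5.17, 5.71 and 5.07 at day 15 and 7.07, 7.16, 6.03, 6.17 and 7.13 at day 30. All 5 day 30 arrays lay above day 15, with replicates 3 and 4 lower than the others, and em-KCs were also lower in the second array set (6.40 to 6.95, against 7.33 to 8.16). Its difference was 1.39 with all arrays (adjusted p = 0.546), 1.79 within the 13 arrays (adjusted p = 0.00297) and 1.92 with the set term (adjusted p = 0.000489), and the call within the 13 arrays was lost without day 30 replicate 1 (1.84) or 2 (1.75). Stard13, a gene of a GTPase-activating protein, was 5.02, 4.73 and 5.18 at day 15 and 6.26, 5.99, 5.97, 5.27 and 5.58 at day 30. The groups did not overlap. The difference was 0.83 with all arrays (adjusted p = 0.399), 1.15 within the 13 arrays (adjusted p = 0.00344, lost without day 30 replicate 1 at 1.02) and 1.11 with the set term (adjusted p = 0.000879).

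C6, part of the pore that complement builds in membranes, was 10.10, 10.10 and 10.57 at day 15 and 10.96, 11.22, 10.86, 10.44 and 10.62 at day 30. Replicate 4 of day 30 lay below day 15 replicate 3, so the groups overlapped. The difference was 0.57 with all arrays (adjusted p = 0.723), 0.84 within the 13 arrays (adjusted p = 0.0451) and 0.78 with the set term (adjusted p = 0.00875). Within the 13 arrays the call was lost without any of day 15 replicates 1 and 2 and day 30 replicates 1 and 2 (0.70 to 0.97), and with the term it was lost without day 15 replicates 1 or 2 or day 30 replicate 2 (0.69 to 0.70). Pcolce2, whose protein enhances the trimming of procollagen, was 10.54, 10.53 and 10.58 at day 15 and 11.09, 11.12, 10.83, 10.71 and 10.74 at day 30, every array above day 15. Its difference of 0.60 was called with the set term alone (adjusted p = 0.00875, lost without day 15 replicate 1 at 0.60 or 2 at 0.59). Among 30 measured complement genes, C6 was the single one called in any comparison, and the median difference was 0.01 with all arrays and -0.01 within the 13.

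**Figure D1:**
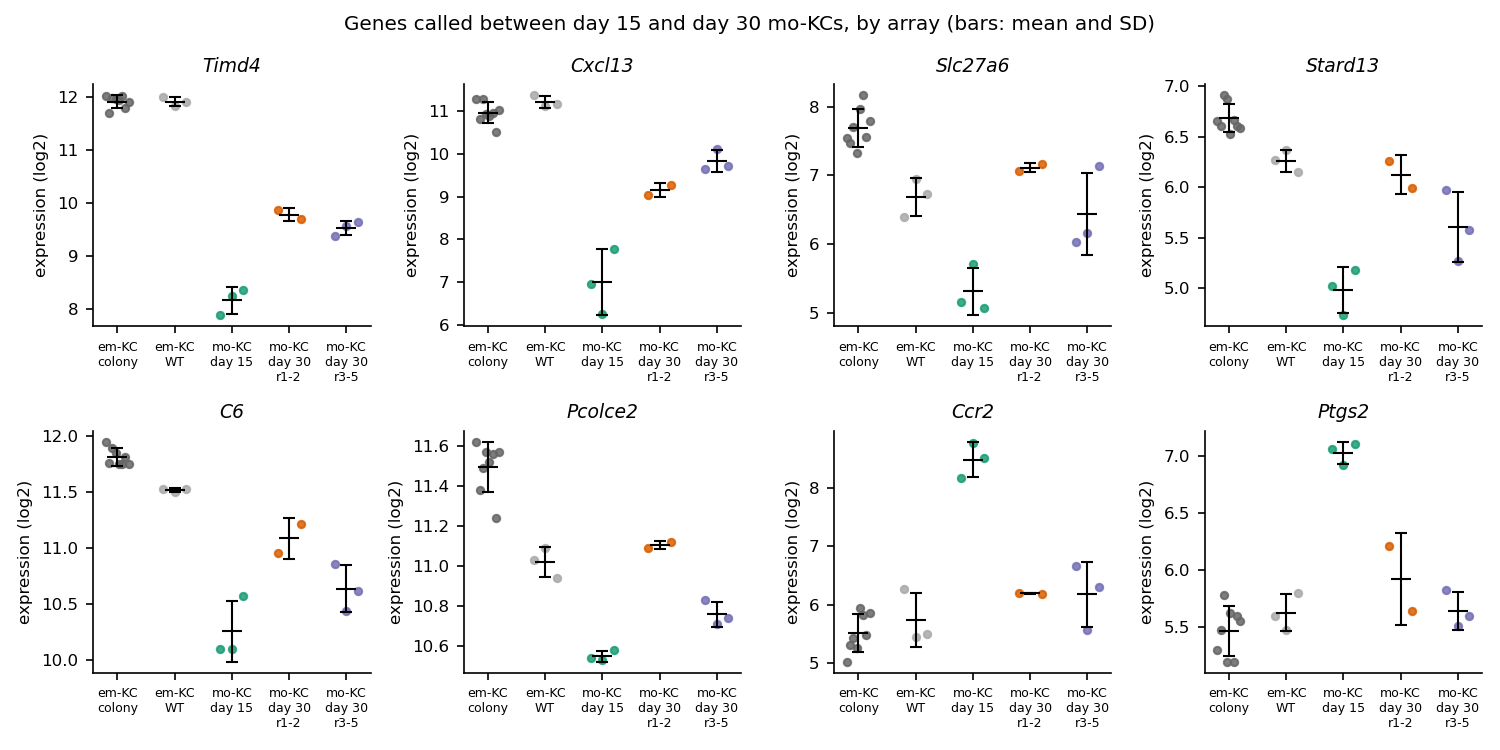
Log2 expression (vertical axis) of the 8 genes called in at least 1 comparison of the days, 1 point per array, with columns for em-KCs of the KC-DTR colony, WT em-KCs, day 15 mo-KCs, day 30 replicates 1 and 2 (r1-2) and day 30 replicates 3 to 5 (r3-5); bars give the mean and SD. Timd4 and Cxcl13 rise from day 15 to day 30 and stay below every em-KC array, while Ccr2 and Ptgs2 fall to near the em-KC level; each vertical axis has its own range.

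The promoters of the 4 genes called with all arrays are shown because in these genes every day 30 array lay on the same side of every day 15 array, and they carry the main result. Each window of 300 bases around the start of the RefSeq gene is given 5′ to 3′ on the strand of the gene, from build GRCm38.p6, with Timd4 at chr11:46810549-46810848, Cxcl13 at chr5:95956689-95956988, Ccr2 at chr9:124101933-124102232 and Ptgs2 at chr1:150099781-150100080, all on the plus strand. Capitals mark matches, on either strand, to the letters GAGGAA (the core of sites of the macrophage factor PU.1), TATAAA (the TATA box that sets a start), AGGTCA (the half-site of many nuclear receptors), TGGGAA (the core of sites of RBPJ, the Notch factor) and TGACG (a half-site of cAMP response elements).
Timd4: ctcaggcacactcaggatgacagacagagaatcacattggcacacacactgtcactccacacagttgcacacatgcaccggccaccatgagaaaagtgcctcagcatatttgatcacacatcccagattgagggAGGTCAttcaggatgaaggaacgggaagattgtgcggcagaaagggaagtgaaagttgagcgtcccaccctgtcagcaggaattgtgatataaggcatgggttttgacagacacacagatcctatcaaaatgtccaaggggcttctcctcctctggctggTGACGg
Cxcl13: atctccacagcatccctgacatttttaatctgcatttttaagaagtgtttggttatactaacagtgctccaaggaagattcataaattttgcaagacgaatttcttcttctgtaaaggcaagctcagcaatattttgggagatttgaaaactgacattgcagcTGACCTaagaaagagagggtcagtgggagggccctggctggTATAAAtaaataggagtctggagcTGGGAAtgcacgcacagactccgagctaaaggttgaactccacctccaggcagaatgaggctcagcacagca
Ccr2: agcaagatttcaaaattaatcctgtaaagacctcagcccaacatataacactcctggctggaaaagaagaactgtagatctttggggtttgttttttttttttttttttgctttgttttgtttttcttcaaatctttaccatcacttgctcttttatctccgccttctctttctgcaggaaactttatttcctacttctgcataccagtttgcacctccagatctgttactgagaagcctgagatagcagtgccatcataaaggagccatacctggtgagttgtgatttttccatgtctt
Ptgs2: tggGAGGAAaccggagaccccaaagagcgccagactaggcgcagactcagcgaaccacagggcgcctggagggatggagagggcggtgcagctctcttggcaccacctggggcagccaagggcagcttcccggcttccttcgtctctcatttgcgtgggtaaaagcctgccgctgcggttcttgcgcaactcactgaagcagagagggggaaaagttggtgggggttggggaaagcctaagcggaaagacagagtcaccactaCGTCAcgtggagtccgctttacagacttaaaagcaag
None of the matches in these windows overlapped another. The Timd4 window held the nuclear receptor and cAMP half-sites, the Cxcl13 window the nuclear receptor half-site, the TATA box and the RBPJ letters, the Ptgs2 window the PU.1 core and the cAMP half-site, and the Ccr2 window none of the 5. Of 32851 RefSeq promoter windows, 28.3% held the PU.1 core, 13.6% the TATA box, 16.3% the nuclear receptor half-site, 25.6% the RBPJ letters and 20.8% the cAMP half-site. The nuclear receptor half-site was found once in 4 of the 7 called genes with a window (Timd4, Cxcl13, C6 and Stard13) and not in Pcolce2, Ccr2 or Ptgs2. A match gives the letters only and is no evidence of binding.

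Among chemokine receptors, 6 of 18 measured genes had every day 30 array below every day 15 array, and 0 had every array above. The same separation downward was found for 1.55% of all genes. These 6 were Ccr2, Cx3cr1, Ccr1, Ccr3, Ccrl2 and Cxcr4, of which Ccr2 alone passed the test, and those other than Ccr2 and Ccr3 were named after their values were seen. The median difference of the list was 0.0 with all arrays and -0.01 within the 13 arrays, as the other 12 receptors did not separate. Cx3cr1, the fractalkine receptor of monocytes and several macrophages, was 9.97, 9.84 and 9.24 at day 15 and 8.61, 8.67, 8.10, 8.66 and 8.02 at day 30. Every day 30 array was below day 15 and above every colony em-KC array (6.61 to 7.69). Its difference was -1.27 with all arrays (95% interval -1.84 to -0.71, adjusted p = 0.339), -1.04 within the 13 arrays (adjusted p = 0.999) and -1.42 with the set term (adjusted p = 0.146).

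Ccr1, a receptor for inflammatory chemokines, was 5.08, 5.29 and 5.12 at day 15 and 3.89, 4.43, 4.61, 4.79 and 3.58 at day 30. The difference was -0.90 with all arrays (adjusted p = 0.428), and within the 13 arrays it was also negative without a call (adjusted p = 0.105). Ccr3, best known from eosinophils, is one of the genes that were higher in mo-KCs than in em-KCs, and it was 10.22, 10.46 and 9.98 at day 15 and 9.59, 9.41, 9.05, 9.62 and 9.30 at day 30 (difference -0.83, adjusted p = 0.92). Ccrl2, a receptor that binds chemerin, and Cxcr4, the CXCL12 receptor, had differences of -1.15 and -0.90 with all arrays, of which -0.44 and -0.56 were left within the 13 arrays. For these 2 genes the em-KC arrays of the second set (at most 8.09) also lay below those of the colony (at least 8.28), so the 5 day 30 arrays mix the day with the array set.

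Of 31 measured monocyte genes, Ccr2 was the only one called in each comparison, and the median difference was -0.01 with all arrays, -0.07 within the 13 arrays and -0.12 with the set term. Every day 30 array was below every day 15 array for 5 of them (Ccr2, Cx3cr1, Napsa, Gpr141 and Ace) and above for 1 (Mgst1). Over all genes such separation was found for 1.55% downward and 1.65% upward. S100a8, a gene of circulating monocytes and neutrophils, was between 6.07 and 6.27 at day 15 and between 5.95 and 7.74 at day 30, and em-KC arrays overlapped with both days. Plac8 and Ms4a4c, which are higher in monocytes than in most macrophages, had differences of 0.04 and 0.02 with all arrays and of -0.46 and -0.50 within the 13 arrays, none of them called. Ly6c1 and Ly6c2 had no probeset of 1 gene and were not analysed here.

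**Figure D2:**
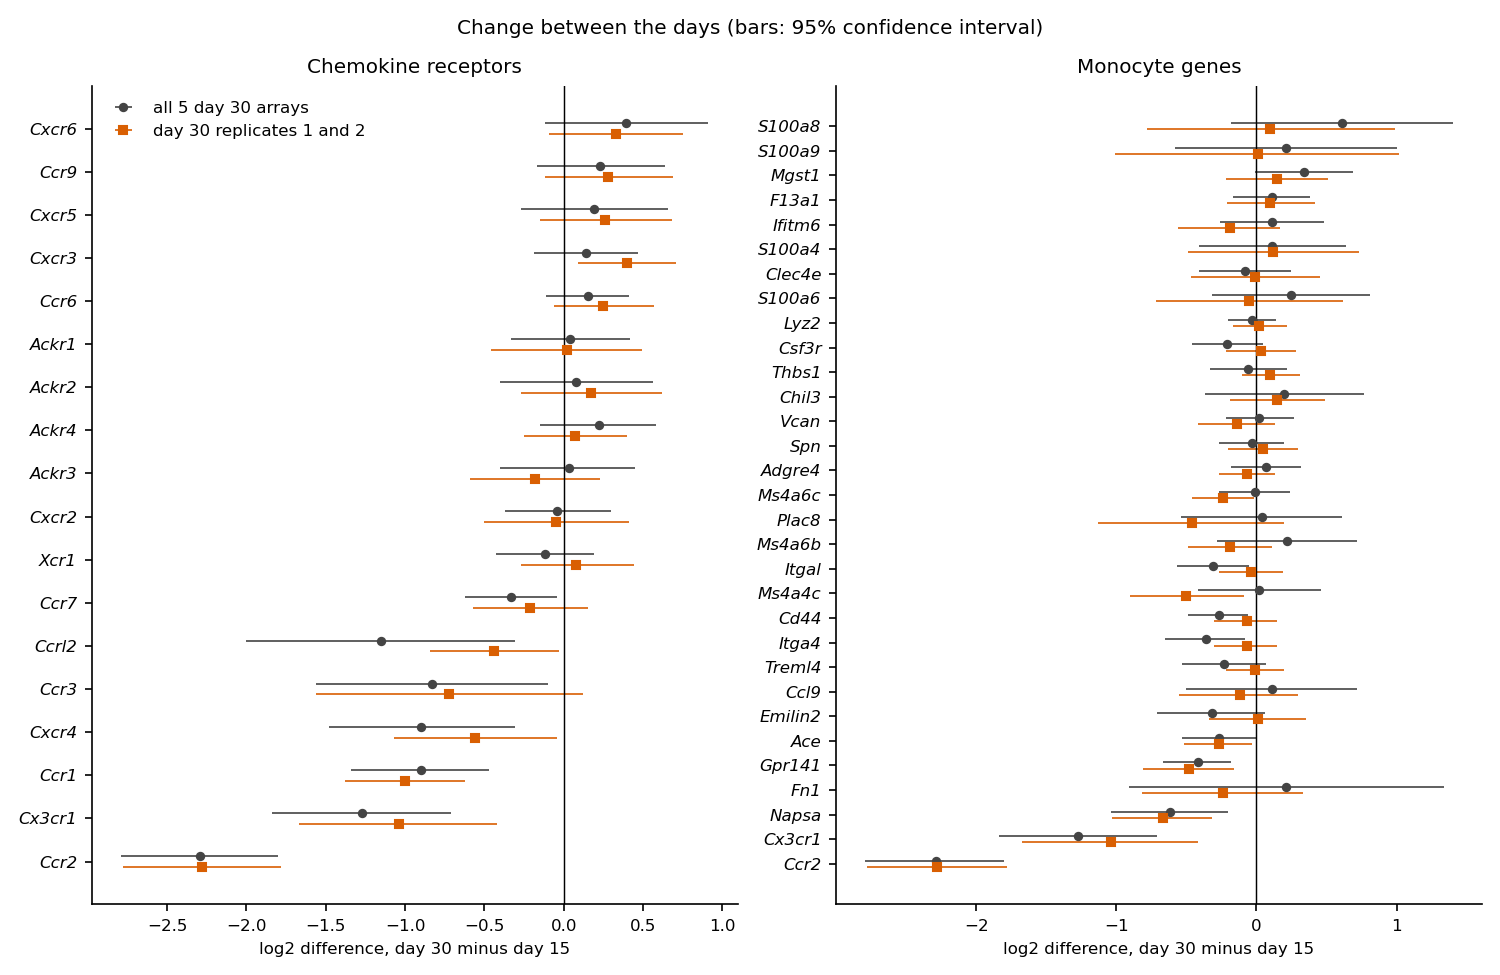
Log2 difference of day 30 minus day 15 (horizontal axis) with its 95% confidence interval for the 18 chemokine receptors (left) and 31 monocyte genes (right), with all 5 day 30 arrays (circles) and with day 30 replicates 1 and 2 alone (squares). Ccr2 lies far to the left in both panels at -2.29 and -2.28, and Cx3cr1 (-1.27 and -1.04) follows. Among chemokine receptors with all arrays, Ccrl2 comes next, and then Ccr1 (-0.90) and Cxcr4, and most other genes have intervals that include 0.

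Most KC identity genes were not called between the days. Of 33 measured genes, 2 were called higher with all arrays (Timd4 and Cxcl13), 3 within the 13 arrays (with C6) and 4 with the set term (with Pcolce2), and 0 were called lower in any of them. The median difference was -0.01, 0.08 and 0.03 in the same order. The mean log2 level over the 33 genes was 10.59, 10.62 and 10.70 in the day 15 arrays, 10.88 and 10.86 in day 30 replicates 1 and 2, and 10.74, 10.69 and 10.60 in replicates 3 to 5, against 11.11 to 11.26 in em-KCs. Replicates 1 to 3 were thus above all day 15 arrays, replicate 3 by little, and replicates 4 and 5 were within the day 15 range. The complement receptor gene Vsig4 differed by 0.07 (95% interval within 1.5-fold), the ferroportin gene Slc40a1 by -0.01 and the secreted scavenger receptor gene Cd5l by -0.07. Every day 30 array was above every day 15 array for 7 members, the called genes Timd4, Cxcl13 and Pcolce2 with Apoc1, Fabp7, Nr1h3 and Xlr, and below for Spic alone, beside 1.65% and 1.55% of all genes.

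Of 23 measured KC transcription factors, 0 were called in any comparison (limma), with 5 at an unadjusted p under 0.05 with all arrays and 0 within the 13 arrays. The median difference was -0.09 with all arrays and 0.07 within the 13 arrays. Nr1h3, which encodes the oxysterol receptor LXRα, was 10.39 to 10.48 at day 15 and 10.57 to 10.76 at day 30 (difference 0.26, adjusted p = 0.92). Spic, the factor of iron-recycling macrophages, went the other way, from 10.49, 10.32 and 10.44 to 10.29, 10.13, 9.94, 10.03 and 9.80 (difference -0.38, adjusted p = 0.92). Id3 was between 11.22 and 11.31 at day 15 and between 11.09 and 11.32 at day 30.

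A further list held 19 genes that were called between day 30 mo-KCs and em-KCs in earlier results of these arrays, and since they were picked on these arrays the list is no independent evidence of a direction. Timd4 was called with all arrays, and Timd4 and C6 in the other comparisons. The median difference was 0.24 with all arrays, 0.21 within the 13 arrays and 0.34 with the set term. Apoc1, an apolipoprotein gene, was 12.13, 12.17 and 12.09 at day 15 and 12.45, 12.41, 12.61, 12.45 and 12.57 at day 30. The groups did not overlap and both lay below em-KCs (13.17 to 13.40), and the difference of 0.37 (standard error 0.08) missed the threshold with all arrays (adjusted p = 0.339). Sdc2, a heparan sulfate proteoglycan gene, was 5.19, 5.06 and 4.66 at day 15 and 5.85, 5.41, 5.60, 6.22 and 5.37 at day 30 (difference 0.72, adjusted p = 0.92). Ifi208, an interferon-inducible gene of a family with similar members that probes may not tell apart, was 5.39, 6.76 and 7.43 at day 15 and 5.23, 4.59, 3.94, 4.47 and 4.93 at day 30. It moved away from the WT em-KC level of 7.11 to 7.63, with a difference of -1.89 (adjusted p = 0.378), and without day 15 replicate 1 it was called with all arrays (-2.46, adjusted p = 0.0436). Within the 13 arrays Ifi208 differed from colony em-KCs by -0.42 at day 15 and by -2.03 in day 30 replicates 1 and 2, and neither was called.

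Other members of that list were not called. The complement gene C2 was between 5.85 and 6.43 at day 15 and between 5.75 and 6.49 at day 30, against 8.97 to 9.64 in em-KCs. The complement gene C4b had a difference of 0.25. The hemoglobin scavenger receptor gene Cd163 and the heme oxygenase gene Hmox1 each had a difference of -0.11 with all arrays, which turned to 0.55 and 0.08 within the 13 arrays. The BMP receptor gene Bmpr1a was 3.55 to 3.71 at day 15 and 3.48 to 4.14 at day 30, against 5.57 to 7.13 in em-KCs. Among genes that were higher in mo-KCs, Tspan32 (0.13), Gdf3 (0.60), Insl6 (0.22) and Cd207, the langerin gene (0.24), had positive differences with all arrays, away from the em-KC level. For Tspan32 and Gdf3 the sign turned within the 13 arrays (-0.04 and -0.18). Marco (0.58) and the lectin gene Cd209f, whose family members may share probes (0.65), varied within day 15 by more than the difference between the days. For Cd209f, day 30 replicate 3 had 4.77, below the day 15 range of 4.88 to 5.70, replicate 5 had 5.22, within it, and replicates 1, 2 and 4 had 6.23 to 6.83.

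Clec4f, which carries the cassette and whose protein was used in the sort, was 12.18, 12.21 and 12.16 at day 15 and 12.29, 11.24, 10.95, 10.66 and 11.10 at day 30. Replicate 1 of day 30 was level with day 15, and the other 4 day 30 arrays were between 10.66 and 11.24, so the groups overlapped through 1 array. The difference was -0.94 with all arrays (adjusted p = 0.512), -0.42 within the 13 arrays (adjusted p = 0.999) and -0.75 with the set term (adjusted p = 0.602). Without day 30 replicate 1 Clec4f was called lower both with all arrays (-1.20, adjusted p = 7.81e-05) and with the set term (-1.13, adjusted p = 0.00112). Within the 13 arrays, where leaving out 1 day 30 array leaves 1, the difference was -0.94 without replicate 1 and 0.11 without replicate 2. The sign there thus depended on the array left out.

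**Figure D3:**
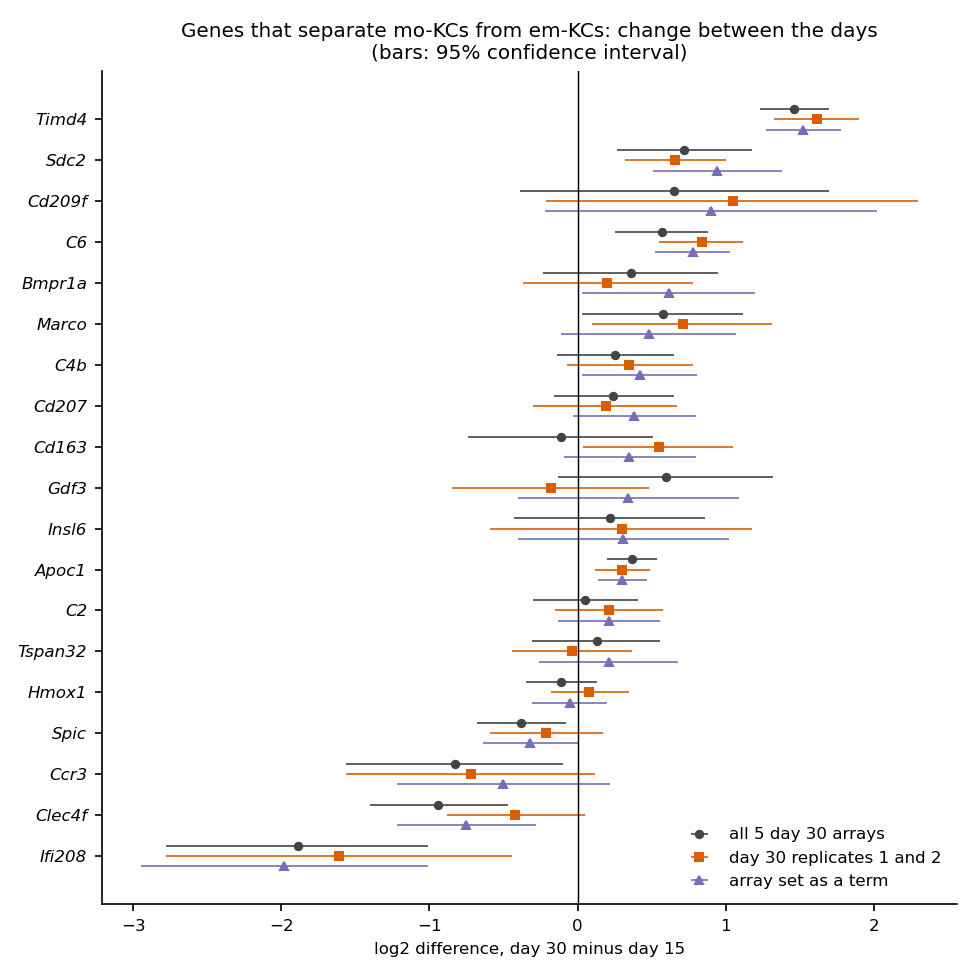
Log2 difference of day 30 minus day 15 (horizontal axis) with its 95% confidence interval for the 19 genes of the list picked for a difference between mo-KCs and em-KCs, with all 5 day 30 arrays (circles), day 30 replicates 1 and 2 alone (squares) and the set term (triangles). Timd4 stands apart at 1.46 to 1.62, and Ifi208 lies lowest at -1.98 to -1.61 with wide intervals.

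Immediate-early genes, which respond within minutes to stress such as tissue digestion, differed more between the array sets than between the days. With all arrays all 32 measured members had negative differences, with a median of -0.92, but 0 were called (limma, 12 at an unadjusted p under 0.05). Within the 13 arrays the median was -0.05, with 21 members negative, 0 called and 0 at an unadjusted p under 0.05. Fos, the best known of them, was 10.50, 10.86 and 10.75 at day 15, 10.73 and 10.37 in day 30 replicates 1 and 2, and 8.14, 7.90 and 6.92 in replicates 3 to 5. The WT em-KC arrays of the second set had Fos at 7.59 to 7.77.

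Of 31 measured inflammatory cytokine and NF-κB genes, Ptgs2 was the single one called, and the median went from -0.30 with all arrays to -0.09 within the 13. Il6 had every day 30 array below day 15, but its day 30 values split by set, with 7.12 and 6.40 in replicates 1 and 2 and 5.44 to 6.27 in replicates 3 to 5. Ptgs2, in contrast, was 5.92 ± 0.40 (SD, n = 2) in replicates 1 and 2 and 5.65 ± 0.17 (SD, n = 3) in replicates 3 to 5, and colony and WT em-KCs had 5.47 ± 0.22 (SD, n = 8) and 5.63 ± 0.16 (SD, n = 3).

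Cell cycle and DNA replication genes had small negative differences without a call. Of 43 measured genes, 38 were negative with all arrays and 38 within the 13 arrays, with medians of -0.23 and -0.16 beside 0.0 and 0.001 over all genes, and 0 were called in either (limma, 7 and 1 at an unadjusted p under 0.05). The day 15 arrays differed among themselves by more than this. The mean log2 level of the list was 7.50, 7.14 and 7.86 in day 15 replicates 1 to 3, 7.34 and 7.29 in day 30 replicates 1 and 2, and 7.41, 7.03 and 7.19 in replicates 3 to 5, and em-KCs had 6.88 to 7.28. Mki67, the gene of the proliferation marker Ki-67, was 7.93, 7.69 and 8.39 at day 15, 7.76 and 7.82 in day 30 replicates 1 and 2 and 6.39 to 7.36 in replicates 3 to 5.

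The metabolic and receptor programmes of KCs had no called gene in the 3 comparisons of the days, where at most 0.0401% of all genes were called. These lists held 32 genes of iron and heme handling, 23 of lipid uptake and cholesterol efflux, 25 of cholesterol and fatty acid synthesis, 18 scavenger receptors, 32 lysosomal genes, 18 genes of MHC class II presentation, 31 of BMP and TGF-β signalling, 29 C-type lectins and 29 interferon-stimulated genes, each with 0 genes called by limma and at most 3 at an unadjusted p under 0.05 in any of these comparisons. Their median differences ran from -0.15 to 0.01 with all arrays and from -0.04 to 0.07 within the 13 arrays. Every day 30 array was below day 15 for Fdps, Lss and Fasn in cholesterol and fatty acid synthesis (differences of -0.27, -0.27 and -0.29), for Flvcr1 and Spic in iron and heme handling, for the lysosomal genes Gla and Psap, and for 1 gene each of lipid uptake (Pparg), BMP and TGF-β signalling (Id1), C-type lectins (Cd209a) and interferon-stimulated genes (Ifi208). Every day 30 array was above day 15 for 3 genes of lipid uptake and efflux (Apoc1, Nr1h3 and Fabp7). Over all genes such separation was found for 1.55% downward and 1.65% upward.

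Markers of other liver cells changed their direction with the arrays used. The 26 measured hepatocyte markers had a median difference of 0.34 with all arrays, -0.28 within the 13 arrays and -0.51 with the set term, and 0 were called (limma, 0, 5 and 8 at an unadjusted p under 0.05). Their summed level, the log2 of the sum of linear values, was 13.24 to 13.70 at day 15, 13.23 to 13.28 in day 30 replicates 1 and 2, and 13.47 to 14.18 in replicates 3 to 5, against 13.35 to 14.21 in colony and 14.84 to 14.94 in WT em-KCs. Alb, the albumin gene, was 9.30 to 10.07 at day 15 and 9.55 to 11.56 at day 30. The 24 sinusoidal endothelium markers had medians of -0.20, 0.16 and 0.08, and summed levels of 14.41 to 14.67 at day 15, 14.63 to 14.73 in replicates 1 and 2 and 14.10 to 14.38 in replicates 3 to 5. Lists of stellate cells (14 genes), T, NK and B cells (16), granulocytes (18), dendritic cells (14) and erythroid cells (5) had 0 called genes each (limma, at most 3 at an unadjusted p under 0.05 in any comparison) and medians between -0.11 and 0.20 with all arrays. The part of such cells in the calls was not tested.

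**Figure D4:**
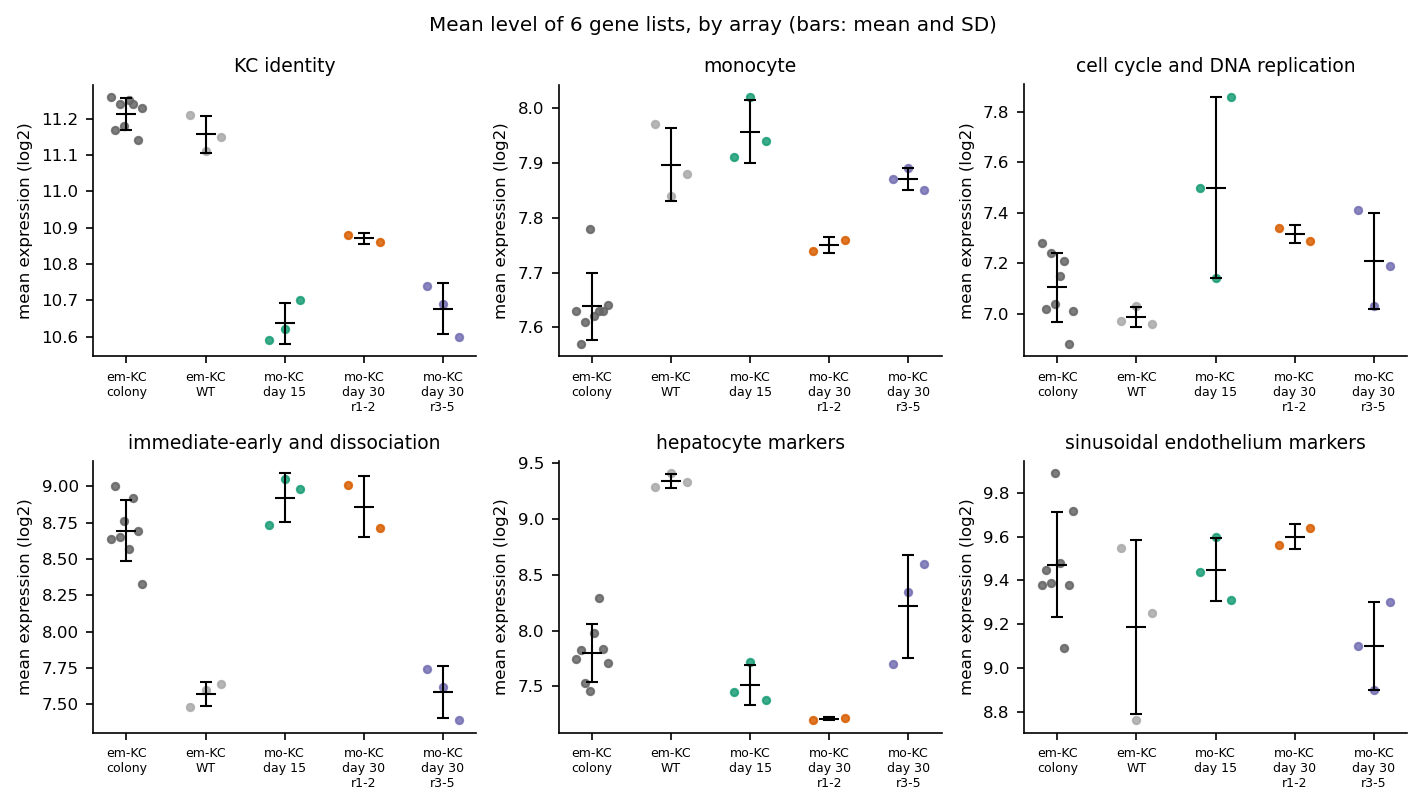
Mean log2 expression over the genes of 6 lists (vertical axis), 1 point per array, in both kinds of em-KCs, in mo-KCs at day 15, and in day 30 replicates 1 and 2 (r1-2) and 3 to 5 (r3-5); bars give the mean and SD, and each axis has its own range. Immediate-early genes separate the second array set from the rest at both mo-KC and em-KC level, and KC identity genes lie highest among mo-KCs in day 30 replicates 1 and 2 at 10.88 and 10.86.

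The 2 parts of the day 30 group also differed in how far they lay from the em-KCs of their own array set. Replicates 3 to 5 were compared with WT em-KCs and replicates 1 and 2 with colony em-KCs, and the difference of the 2 differences was called for 942 of 19938 genes (4.72%, limma), of which 563 had a more positive and 379 a more negative difference from em-KCs in replicates 3 to 5. These signs are of the differences from em-KCs and not of the levels in mo-KCs. The 8 genes called between the days were not among them, with differences between -0.43 and 0.42 and adjusted p from 0.306 to 0.844. Among the 10 genes with the largest negative difference were the liver enzyme genes Aadac, Bhmt, Cyp2d26, Cyp4a14 and Ugt2b34. Plg, the plasminogen gene of hepatocytes, was 5.96 ± 0.05 (SD, n = 2) in replicates 1 and 2, 6.73 ± 0.21 (SD, n = 3) in replicates 3 to 5, 6.51 ± 0.26 (SD, n = 8) in colony em-KCs and 9.12 ± 0.24 (SD, n = 3) in WT em-KCs, a difference of -1.84 (adjusted p = 0.000565). The mo-KC arrays of the 2 parts thus differed less than the em-KC arrays they were set against. Rpa3, a subunit of the replication protein that binds single-stranded DNA, had the largest positive difference, 1.92 (adjusted p = 0.000565), with 7.42 ± 0.02 and 8.39 ± 0.23 in the mo-KC parts and 7.30 ± 0.13 and 6.35 ± 0.37 in colony and WT em-KCs (SD, n = 2, 3, 8 and 3). Of the lists, lysosomal genes had 1 called with a positive and 8 with a negative difference among 32. Negative calls alone were found for 4 of 18 scavenger receptors, 3 of 30 complement, 3 of 31 monocyte and 3 of 32 iron and heme handling genes. Lipid uptake and efflux had 1 positive and 3 negative of 23. The KC identity, hepatocyte and C-type lectin lists had 2 negative each, of 33, 26 and 29 genes. Each other list had at most 1 called gene, beside the 4.72% of all genes in either direction, and no list was tested as a set. The count over all genes fell to 296 without day 30 replicate 1 and to 352 without replicate 2. For the 942 genes the fit with the set term does not hold as it stands, since it takes the shift between the sets to be the same in em-KCs and mo-KCs.

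Whether the later mo-KCs lay nearer to em-KCs was counted on genes chosen in other arrays. Between day 30 replicates 3 to 5 and WT em-KCs, 827 genes were called, and their values were then taken from the 13 arrays of the first set. Of these genes, 423 (51.1%) had a smaller absolute difference from colony em-KCs in day 30 replicates 1 and 2 than in day 15 mo-KCs, against 46.2% of all 19938 genes. In the median, these genes lay 0.1035 (log2) from em-KCs at day 15 and 0.1015 at day 30. The day 30 mean rested on 2 arrays and the day 15 mean on 3, and both were set against the same em-KC arrays, so the count is a description. The 827 genes included hepatocyte genes such as Alb, Hpx and Plg. Summed hepatocyte markers were 14.84 to 14.94 in the WT em-KCs used for the choice, against 13.47 to 14.18 in replicates 3 to 5. The part of such genes in the count was not tested. Leaving out 1 mo-KC array at a time gave 382 to 458 genes nearer at day 30 (46.2% to 55.4%), while the share over all genes moved with it from 40.3% to 51.6%. The 8 called genes, which were chosen on these same arrays, were all nearer to em-KCs at day 30 within the 13 arrays. The gap of Slc27a6 went from -2.38 to -0.58, that of Stard13 from -1.70 to -0.56, that of C6 from -1.56 to -0.73 and that of Pcolce2 from -0.94 to -0.39.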

How the data were processed

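KCs were FACS-purified, and their RNA was hybridised to Affymetrix mouse gene arrays, 1 array per sample. The authors deposited log2 values of probesets after background correction, log2 transformation, summarization and quantile normalization between arrays by the Robust Multi-array Average procedure, whose version was not given in the sources used here. Quantile normalization gives every array the same distribution, so a change of total RNA per cell cannot be seen. Values ran from 1.71 to 14.38.

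Of 35556 probesets, 21789 with 1 gene symbol were kept, 1621 with several and 12146 with none were left out, and the brightest probeset by its mean stood for each gene, following the study's methods, which left 19938 genes. No pair of arrays was identical. Groups were compared with limma 3.58.1 (lmFit and eBayes, two-sided) in R 4.3.3, and p-values were adjusted by the Benjamini-Hochberg method across the 19938 genes and called under 0.05. The first fit held all 19 arrays in 3 groups, the second 13 arrays, the third all 19 with the array set as a term, and the fourth 5 groups for the difference between both parts of day 30. Fits were tested on simulated data. Whether the replicates of a group came from separate mice beyond the label biological replicate is not given, and p-values measure the spread between these samples. In the first fit the em-KC group and the day 30 group each held arrays of both sets. The spread used there thus includes the difference between the sets. Precision is limited by the number of arrays.

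The comparison, the 27 gene lists (563 of 609 genes measured) and the tests were chosen with earlier results of these data known. Genes were named where they were among the 10 largest called differences in a direction (for the day comparisons only if the arrays of both days did not overlap), among the 4 largest called members of a list, in the list of genes that differ between mo-KCs and em-KCs, or among the markers of the label check. By that rule C6 entered within the 13 arrays, where its groups did not overlap. Other genes were named after their values were seen. Promoter windows and motif matches used RefSeq tables of GRCm38.p6, which held 7 of the 8 called genes. Alternatives were the mean of probesets, a mean of at least 6, equal array medians, quantile normalization over genes, trend and robust variance, the methods' t-test, mo-KC arrays alone, the replicate block, conditions as groups, a stricter selection threshold, leaving out each array and, chosen after seeing the data, a spread from all 19 arrays for the second comparison.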

Additional observations from a re-analysis of the deposited data

Results flagged for a closer look

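The 5 day 30 values of 25 genes (the called genes and the list of genes that differ between mo-KCs and em-KCs) were tested for a sample far from the others, and 1 gene was flagged, where chance flags about 1 in 20. Bmpr1a was 3.48 in day 30 replicate 1, while the other day 30 arrays had 4.00 to 4.14.

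The comparison of both parts of the day 30 group, each relative to the em-KCs of its own array set, was tested as an interaction and called 942 genes. The values are differences between 2 differences from em-KCs, not levels. The most negative were those of Prr11 (-2.20), Plg (-1.84), Cyp4a14 (-1.75), Cyp2d26 (-1.68), Aadac (-1.60), Anpep (-1.59), Rpph1 (-1.58), Snord37 (-1.56), Ugt2b34 (-1.56) and Bhmt (-1.54). The most positive were those of Rpa3 (1.92), Gnpnat1 (1.69), Snora3 (1.62), Fam3b (1.60), Timm21 (1.59), Vmn2r9 (1.59), Ppih (1.57), D030056L22Rik (1.55), Dppa3 (1.54) and Tcim (1.54). Beside them, summed hepatocyte markers were 13.23 to 13.28 in replicates 1 and 2, 13.47 to 14.18 in replicates 3 to 5, 13.35 to 14.21 in colony em-KCs and 14.84 to 14.94 in WT em-KCs, and their part in these differences was not tested.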

How the results depend on the processing

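With all arrays, the alternatives called 3 to 5 genes in place of 4, except that the methods' t-test called 0 (782 at an unadjusted p under 0.05). Leaving out 1 mo-KC array gave 4 to 6 genes, and Timd4, Cxcl13, Ccr2 and Ptgs2 were among them each time. Within the 13 arrays, 6 genes became 11 with trend and robust variance, 1 with the methods' t-test (Olfr952), 2 with mo-KC arrays alone (Ccr2 and Timd4) and 2 to 7 when 1 array was left out, with 2 without day 30 replicate 1 and 3 without replicate 2. With the array set as a term, 7 or 8 genes were called, and 6 to 10 without 1 array. The difference between both parts of day 30 was called for 296 to 962 genes when 1 day 30 array was left out. Of 133 genes at a selection threshold of 0.01, 63 were nearer to em-KCs at day 30 (47.4%, against 46.2% of all genes). No called gene changed its direction, and the cause of lost calls was not tested.

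Deviations of day 15 and day 30 arrays of the same number from their group means had correlations of 0.0345, -0.124 and 0.0436 for replicates 1 to 3. The day 30 mean spans both array sets, so these values cannot settle whether the numbers pair the samples. With the replicate number as a block among mo-KC arrays, 3 genes were called with all arrays (Ccr2, Cx3cr1 and Cxcl13, but not Timd4 or Ptgs2) and 9 within the 13. Ptgs2 has a mean under 6 and drops out under that filter.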
